A study of Rattus norvegicus with 10 samples.

Results

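Solute carriers are membrane proteins that move small molecules across cell and organelle membranes. The genes described here are those whose symbol starts with Slc or Slco followed by a digit, and 31 of the 1319 genes in the deposited table met this rule. The table came from RNA sequencing of lung from rats of the outbred Sprague Dawley strain, aged 8 weeks, with 5 wild-type (WT) libraries and 5 libraries from rats lacking Cmg2, labelled Cmg2-KO. Cmg2 is the gene for capillary morphogenesis gene 2 protein, also named ANTXR2, a transmembrane receptor that binds extracellular matrix proteins and anthrax toxin. The labels give genotype, strain, tissue and age for both groups and name no agent, and how the gene was inactivated is not given in the sources used here. They also do not tie each library to an animal of its own, so every p-value here rests on library-to-library spread, which may be technical. Antxr2, the targeted gene, was not analysed here, so the genotype labels were not checked against its transcript.

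Each family of solute carriers has its own kind of cargo. Some exchange one ion or metabolite for another, some couple uptake to the sodium or proton gradient, and some let the substrate pass down its own gradient. In lung, carriers of sodium, chloride and bicarbonate help to set the volume and pH of the fluid that lines the airways and alveoli, while carriers of amino acids, vitamins and metals feed the cells and protect them from oxidants. Many act beside pumps and channels, which build or use the same gradients.

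All 31 genes were in the table because the authors' own test of Cmg2-KO against WT gave each an unadjusted p under 0.05 (the highest among them was 0.0412, for Slc6a15). The table is therefore a selection on the same contrast, and every direction and overlap given below describes genes already chosen for a difference. The authors' deposited adjusted p-values imply 19894 genes, of which 6.63% are listed, and the 31 make 7.81% of the 397 protein-coding Slc and Slco symbols in RefSeq. Values are scaled counts, the read counts divided by the authors' size factor for each library. The listed genes held between 1386578 and 1531531 scaled counts per library, and between 1289524 and 1620198 whole reads in the 9 libraries where reads were recovered, while the full depth is unknown. Because whole lung was sequenced, fewer cells of a type and less RNA per cell cannot be told apart.

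Of the 31 genes, 20 were lower and 11 higher in Cmg2-KO lung. The lower ones made 64.5% of the carriers, against 51.8% of all 1308 genes tested, and the median log2 fold change (Cmg2-KO relative to WT, from values taken as log2(scaled count + 1)) was -0.28 for the carriers and -0.15 for all genes tested. Most differences were small, since 21 of the 31 had an absolute log2 fold change under 0.5. The riboflavin carrier gene Slc52a3 and the organic anion carrier gene Slco1a2 fell in the authors' deposited table, with adjusted p-values of 0.0172 and 0.0289. These were 2 of the 31 carriers (6.45%), beside 5.46% of all listed genes. With limma, 0 carriers passed an adjusted p of 0.05 (0.229% of the genes tested did), and their adjusted p-values ran from 0.491 to 1. An unadjusted limma p under 0.05 was reached by 24 carriers, or 77.4%, beside 79.1% of all genes tested. Of the count tests, run on 9 libraries without WT 4, edgeR called 0 carriers (0.0765% of the genes tested) and DESeq2 called Slco1a2 alone (3.75% of the genes tested).

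In 5 of the 31 genes the library values of the genotypes did not overlap at all. Slc52a3, Slco1a2 and the iron carrier gene Slc11a2 were the 3 lower ones (9.68%, beside 7.05% of all listed genes), and Slc45a4 and Slc4a10 the 2 higher ones (6.45%, beside 9.25%). For both directions together the share was 16.1% of the carriers and 16.3% of all listed genes, so the carriers were separated about as often as the rest of the table. With fewer libraries overlap is less likely, and the 5 became 9 without WT 1, WT 4 or Cmg2-KO 3 and 11 without Cmg2-KO 4.

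**Figure D1:**
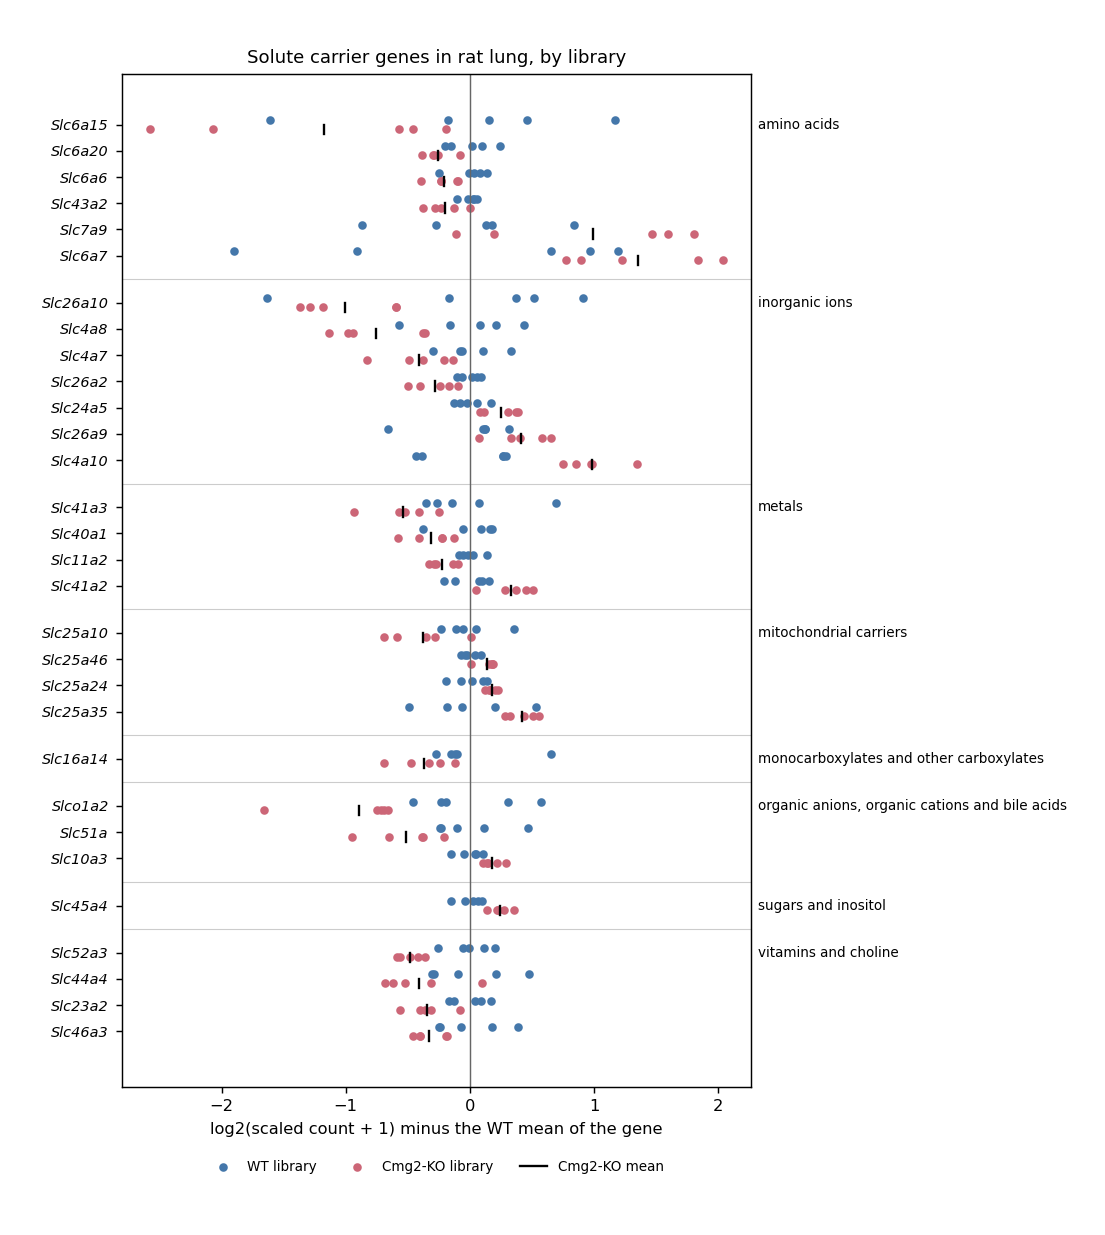
Each row is 1 solute carrier gene and each point 1 library, placed by log2(scaled count + 1) minus the gene's WT mean, with WT in blue, Cmg2-KO in red, a black tick at the Cmg2-KO mean, and genes grouped by substrate class. The Cmg2-KO mean lies left of 0 for 19 of the 30 genes shown and right of 0 for 11, and the WT and Cmg2-KO points overlap in all but 5.

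The 31 genes fell into 8 substrate classes by family. Inorganic ions had 7 of the 61 RefSeq genes of that class, amino acids 6 of 58, metals 4 of 35, mitochondrial carriers 4 of 53, organic ions with bile acids 4 of 53, vitamins with choline 4 of 19, sugars 1 of 27 and carboxylates 1 of 17. No listed gene was in the classes of neurotransmitters (19 genes), nucleotide sugars and related compounds (32), nucleosides (6), fatty acids and lipids (6), peptides (5), urea and ammonium (2) or thyroid hormone (1), or among the 3 genes with no assigned substrate. The vitamin and choline class was lower in all 4 of its listed genes, with log2 fold changes from -0.48 to -0.33. Organic ion and metal carriers were each lower in 3 of 4, amino acid carriers in 4 of 6 and inorganic ion carriers in 4 of 7. Mitochondrial carriers were higher in 3 of 4. None of these splits was tested, because the genes were selected for the contrast.

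The surfactant protein gene Sftpb, a defining gene of lung, held at least 42132.5 scaled counts in every library. Marker genes of several cell types differed between the same libraries. Of 10 smooth muscle markers, 8 were listed and all were lower, and their summed level was between 29743 and 49069 in WT and between 24491 and 36826 in Cmg2-KO. Of 8 club and secretory airway markers, 4 were listed and lower, summing to between 144340 and 196851 in WT and between 84396 and 176966 in Cmg2-KO, with Scgb1a1 making up most of it. Of 10 alveolar type 2 markers, 2 (Sftpb and Etv5) were listed and lower, at between 47793 and 68170 in WT and between 44176 and 51235 in Cmg2-KO, while Slc34a2, the phosphate carrier gene on that list, was not among the listed genes. Of 8 mesothelial markers, 5 were listed and higher, at between 2369 and 4170.5 in WT and between 2883 and 5390.5 in Cmg2-KO. These ranges overlapped between the genotypes, none of these 19 markers was at 0 in any library, and none passed an adjusted p of 0.05 in limma. Fewer markers were listed for fibroblasts (2 of 9, lower), pericytes (1 of 7, lower), endothelium (1 of 9, lower), B and plasma cells (2 of 7, higher) and nerve cells (among 7, S100b and Prph, higher). The lists for alveolar type 1 cells, ciliated cells, macrophages, T and natural killer cells, erythroid cells, neutrophils, fat and cardiac muscle had 0 listed genes. The part of any cell type in the carrier values was not tested.

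The vitamin carriers held the lower gene with the smallest deposited p. Slc52a3 (chromosome 3, 147511406 to 147516455, plus strand) encodes a plasma membrane carrier of riboflavin, vitamin B2. Its scaled counts were 165, 195, 226, 189 and 212 in WT 1 to 5 and 130.4, 141, 152, 132 and 147 in Cmg2-KO 1 to 5. The highest Cmg2-KO library stayed below the lowest WT library, and the Cmg2-KO libraries were closer together than the WT ones. The means were 198 ± 23.6 across WT libraries and 140.5 ± 9.35 across Cmg2-KO libraries (SD, n = 5), a ratio of 0.711 and a log2 fold change of -0.48 ± 0.11 (SE). Its adjusted p was 0.491 in limma against 0.0172 in the authors' deposited table. DESeq2 on the 9 libraries with recovered reads gave an adjusted p of 0.053.

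Slc23a2 (chromosome 3, 124632492 to 124724252, minus strand) encodes a sodium-coupled carrier that concentrates ascorbate, vitamin C, inside cells. It stood at scaled counts of 2384, 1941, 2255, 2175 and 1880.5 in WT 1 to 5 and 1646, 1701, 1435, 2008 and 1604 in Cmg2-KO 1 to 5. Only Cmg2-KO 4 reached into the WT range, above WT 2 and WT 5, while the other 4 Cmg2-KO libraries lay below every WT library. The log2 fold change was -0.34 ± 0.10 (SE). Slc44a4, which encodes a member of the choline-like family that also carries thiamine pyrophosphate, had scaled counts of 502 ± 122 across WT libraries and 378 ± 89.9 across Cmg2-KO libraries (SD, n = 5). Its Cmg2-KO libraries lay below every WT library except Cmg2-KO 4, at 527. Slc46a3, a lysosomal membrane carrier placed here by its folate carrier family, had scaled counts of 189 ± 37.6 across WT libraries and 149 ± 13.7 across Cmg2-KO libraries.

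The organic ion carriers included the lower gene with the largest change among those called in the deposited table. Slco1a2 (chromosome 4, 176445858 to 176528110, minus strand) belongs to the organic anion transporting polypeptides, which take up bile salts, steroid conjugates, thyroid hormone and drugs. The libraries held scaled counts of 466, 658, 452, 387 and 791 in WT 1 to 5 and 316, 168, 323, 337 and 329 in Cmg2-KO 1 to 5. Every Cmg2-KO library was below every WT library, with Cmg2-KO 2 far below the other Cmg2-KO libraries and WT 2 and WT 5 above the other WT libraries. The means were 551 ± 168 across WT libraries and 294 ± 71.1 across Cmg2-KO libraries (SD, n = 5), a ratio of 0.535 and a log2 fold change of -0.89 ± 0.24 (SE), or -0.70 without Cmg2-KO 2. Its adjusted p was 0.671 in limma, 0.0289 in the authors' deposited table and 0.0322 in DESeq2. In RefSeq this symbol is a synonym of both Slco1a4 and Slco1a5, so reads may be split between close copies and the level is uncertain.

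Slc51a encodes one subunit of a basolateral exporter of bile acids and steroids. In scaled counts it measured 37.6, 41.5, 62.2, 48.5 and 37.9 in WT 1 to 5 and 33.9, 34.3, 38.6, 22.7 and 28.1 in Cmg2-KO 1 to 5, with Cmg2-KO 3 inside the WT range, and the log2 fold change was -0.51 ± 0.22 (SE). Slc10a3 (chromosome X) is a member of the bile acid carrier family, and was the only higher gene of the class. It stood at scaled counts of 446, 510.3, 515, 535 and 481 in WT 1 to 5 and 550.1, 547, 609, 534 and 577 in Cmg2-KO 1 to 5. The lowest Cmg2-KO library and the highest WT library differed by less than 1 scaled count. Its log2 fold change was 0.18 ± 0.07 (SE).

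Among the metal carriers, the pair that handles iron was lower, Slc40a1 with an unadjusted limma p of 0.0516. Slc11a2 (chromosome 7, 142025815 to 142063212, minus strand) encodes the divalent metal transporter that brings ferrous iron into the cell or out of endosomes. The libraries held scaled counts of 803, 745, 868, 759 and 784 in WT 1 to 5 and 646, 721, 655, 628 and 739 in Cmg2-KO 1 to 5. The genotypes were separated by a narrow gap between Cmg2-KO 5 and WT 2. The means were 792 ± 48.2 across WT libraries and 678 ± 49.3 across Cmg2-KO libraries (SD, n = 5), with a log2 fold change of -0.23 ± 0.07 (SE). Slc40a1 (chromosome 9, 52894365 to 52912293, minus strand) encodes ferroportin, the exporter of iron from cells. Its scaled counts were 124, 144, 98.8, 146 and 137 in WT 1 to 5 and 117, 96.7, 85.6, 109.7 and 110.2 in Cmg2-KO 1 to 5, so WT 3 lay inside the Cmg2-KO range, and the log2 fold change was -0.31 ± 0.14 (SE).

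The 250 bases before the annotated starts of these iron carrier genes are shown because the genes have the same direction and act on the same metal, on opposite sides of cellular iron balance. They are from RefSeq, build GRCr8, on the minus strand, written 5′ to 3′ so that the last base adjoins the start. Capitals mark matches on either strand to the GC box GGGCGG and the CCAAT box CCAAT. The windows before the Slc11a2 starts are chr7:133417789-133418038 (start A) and chr7:133418940-133419189 (start B), and the window before the Slc40a1 start is chr9:55543461-55543710.
Slc11a2 start A: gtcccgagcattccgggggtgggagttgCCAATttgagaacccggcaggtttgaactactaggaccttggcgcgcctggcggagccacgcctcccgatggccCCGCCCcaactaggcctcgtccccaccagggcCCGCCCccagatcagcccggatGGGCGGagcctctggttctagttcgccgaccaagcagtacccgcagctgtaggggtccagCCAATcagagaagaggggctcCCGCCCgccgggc
Slc11a2 start B: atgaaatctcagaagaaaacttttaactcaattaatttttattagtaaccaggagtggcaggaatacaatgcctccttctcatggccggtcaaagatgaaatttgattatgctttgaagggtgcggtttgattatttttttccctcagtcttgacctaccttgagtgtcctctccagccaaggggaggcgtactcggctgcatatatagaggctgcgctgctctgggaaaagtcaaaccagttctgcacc
Slc40a1: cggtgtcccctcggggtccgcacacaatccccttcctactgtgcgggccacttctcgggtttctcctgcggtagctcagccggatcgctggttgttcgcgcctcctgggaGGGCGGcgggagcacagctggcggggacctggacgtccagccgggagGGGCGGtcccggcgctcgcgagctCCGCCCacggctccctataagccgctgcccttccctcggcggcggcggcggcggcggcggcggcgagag
Start A of Slc11a2 held 6 matches with a GC content of 68.00%, start B held 0 with 43.6%, and Slc40a1 held 3 with 74.00%. The deposited counts give 1 value per gene, so the starts of Slc11a2 cannot be told apart in these data.

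Promoter windows of this length were found for 21 of the 31 carrier genes (23 windows). GGGCGG was in 12 of the 23 windows (52.2%) and in 30.5% of all 33469 RefSeq windows, and CCAAT was in 12 (52.2%) against 34.0%. The E-box CACGTG was in 3 windows (13.0% against 5.59%), of Slc41a3, Slc26a2 and Slc10a3, the first and second lower and the last higher in Cmg2-KO. The hypoxia response core ACGTG, which every E-box contains, was in the same 3 windows (16.6% of all). The antioxidant response element TGACNNNGC was in the windows of Slc6a6, Slc41a2 and Slc46a3 (13.0% against 10.1%). The cAMP response element TGACGTCA, the amino acid response element TGATGNAA and the D-box TTATGTAA were in 0 of the 23, and in 1.59%, 3.40% and 0.828% of all windows. A match is a string of letters and no evidence of binding, and the GC content of the windows was not matched.

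The magnesium carriers Slc41a2 and Slc41a3 differed in direction. Slc41a2 ranged from 161 to 207 scaled counts among WT libraries and from 192 to 264 in Cmg2-KO, with 4 Cmg2-KO libraries above every WT library and a log2 fold change of 0.33 ± 0.11 (SE). Slc41a3 stood at scaled counts of 43.7, 47.7, 41.1, 55.6 and 86.2 in WT 1 to 5 and 36.5, 35.1, 27.2, 44.4 and 39.5 in Cmg2-KO 1 to 5. WT 5 was far above the other WT libraries, and 4 Cmg2-KO libraries lay below every WT library. Its log2 fold change was -0.54 ± 0.23 (SE), and -0.36 without WT 5.

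**Figure D2:**
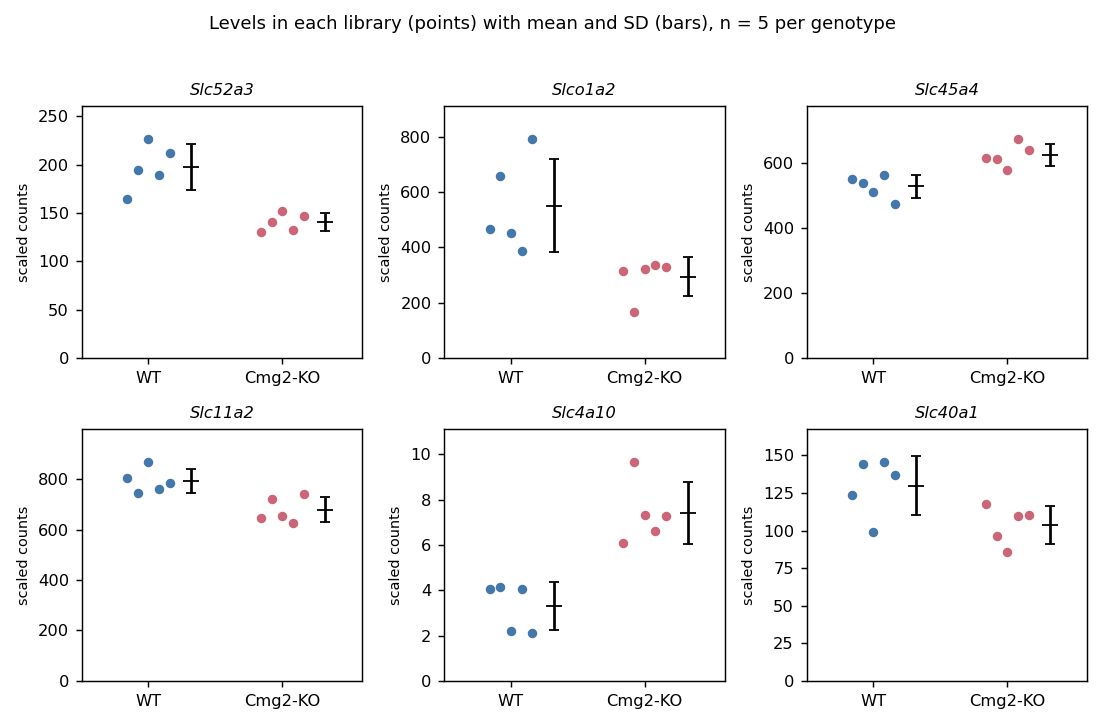
Scaled counts of 6 solute carrier genes in each library (points, WT blue and Cmg2-KO red) with the mean and SD beside them, n = 5 per genotype, each axis starting at 0. The genotypes do not overlap in Slc52a3, Slco1a2, Slc45a4, Slc11a2 and Slc4a10, while in Slc40a1 WT 3 lies inside the Cmg2-KO range.

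The inorganic ion carriers went both ways, also within the bicarbonate family. Slc4a8 (chromosome 7, 142397371 to 142464158, plus strand) encodes a sodium-driven exchanger of chloride for bicarbonate, which raises the pH of the cell. It stood at scaled counts of 113, 65.3, 132, 86.96 and 103 in WT 1 to 5 and 74.7, 50.1, 43.9, 75.6 and 48.9 in Cmg2-KO 1 to 5. Cmg2-KO 1 and Cmg2-KO 4 lay above WT 2 and below the other WT libraries, and the remaining Cmg2-KO libraries lay below them all. The log2 fold change was -0.76 ± 0.23 (SE). Slc4a7, which encodes an electroneutral sodium bicarbonate cotransporter, had scaled counts of 313 ± 51.5 across WT libraries and 236 ± 42.9 across Cmg2-KO libraries (SD, n = 5) and a log2 fold change of -0.41 ± 0.15 (SE). Slc4a10 (chromosome 3, 47995959 to 48287910, plus strand), another sodium-coupled bicarbonate carrier known mostly from brain, was the opposite. The libraries held scaled counts of 4.06, 4.15, 2.22, 4.04 and 2.10 in WT 1 to 5 and 6.08, 9.67, 7.31, 6.62 and 7.28 in Cmg2-KO 1 to 5. All Cmg2-KO libraries exceeded all WT libraries, but at levels of a few reads, and the log2 fold change of 0.98 ± 0.29 (SE) became 0.58 with a pseudocount of 5.

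The Slc26 family carries sulfate, chloride and other anions. Slc26a2, a sulfate carrier whose substrate is used to sulfate cartilage and matrix proteoglycans, ranged from 232 to 265 scaled counts among WT libraries and from 176 to 233 in Cmg2-KO. Cmg2-KO 1 alone passed the lowest WT library, and the log2 fold change was -0.28 ± 0.10 (SE). Slc26a9 encodes a chloride channel of airway epithelium that acts together with the cystic fibrosis channel. In scaled counts it measured 814, 804, 814, 929 and 474 in WT 1 to 5 and 944, 1119, 789.5, 993 and 1177 in Cmg2-KO 1 to 5. WT 5 lay far below the other libraries, and the log2 fold change of 0.41 ± 0.18 (SE) was 0.25 without it. Slc26a10 was close to the limit of detection, at 2.03 to 16.6 scaled counts in WT and 2.64 to 5.21 in Cmg2-KO. Slc24a5, which encodes an exchanger of sodium for calcium and potassium best known from melanosomes, had scaled counts of 167 ± 14.03 across WT libraries and 199.5 ± 19.7 across Cmg2-KO libraries (SD, n = 5) and a log2 fold change of 0.25 ± 0.10 (SE).

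Among the listed amino acid carriers, abundant genes had small differences and sparse genes large ones. A selection at an unadjusted p under 0.05 can favour this split, because a sparse and variable gene is listed only with a large change. The part of the selection in the split was not tested. The split was not particular to this class, since the sparse Slc4a10 and Slc26a10 had log2 fold changes of 0.98 and -1.01. Slc6a6 (chromosome 4, 123642210 to 123713464, minus strand) encodes the sodium- and chloride-coupled carrier of taurine. It stood at scaled counts of 1764, 2309.8, 2143, 2084 and 2223 in WT 1 to 5 and 1964, 1787, 1779.6, 1951 and 1593 in Cmg2-KO 1 to 5. WT 1 lay inside the Cmg2-KO range and Cmg2-KO 5 alone lay below every WT library. The log2 fold change was -0.21 ± 0.08 (SE). Slc43a2, a facilitative carrier of large neutral amino acids, and Slc6a20, an imino acid carrier with proline as a substrate, had log2 fold changes of -0.20 ± 0.07 and -0.26 ± 0.10 (SE). In both, 4 Cmg2-KO libraries lay below every WT library.

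The sparse amino acid carriers were uneven among libraries. Slc6a7, a proline carrier known from brain, stood at scaled counts of 23.4, 7.26, 34.4, 29.3 and 3.16 in WT 1 to 5 and 27.8, 54.5, 62.7, 25.5 and 35.3 in Cmg2-KO 1 to 5. WT 2 and WT 5 were far below the other WT libraries, the genotypes overlapped, and the log2 fold change of 1.35 ± 0.59 (SE) was 0.88 without WT 5. Slc7a9 encodes the light subunit of a cystine and dibasic amino acid carrier of kidney and gut. In scaled counts it measured 4.06, 15.6, 6.66, 9.10 and 9.47 in WT 1 to 5 and 9.56, 24.6, 31.3, 7.56 and 27.03 in Cmg2-KO 1 to 5. Cmg2-KO 2, 3 and 5 were above every WT library, while Cmg2-KO 1 and 4 lay within the WT range. Slc6a15, a carrier of branched-chain amino acids and proline, stood at scaled counts of 6.09, 47.7, 28.9, 18.2 and 23.1 in WT 1 to 5 and 14.8, 2.64, 13.6, 17.96 and 4.16 in Cmg2-KO 1 to 5. Its log2 fold change was -1.17 ± 0.61 and that of Slc7a9 0.99 ± 0.47 (SE), and neither gene was among the 24 below 0.05 before adjustment in limma.

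Mitochondrial carriers had log2 fold changes from -0.38 for Slc25a10 to 0.42 for Slc25a35, with smaller ones for Slc25a24 and Slc25a46. Slc25a24 (chromosome 2, 211930326 to 211967505, plus strand) exchanges ATP-magnesium for phosphate across the inner mitochondrial membrane. It stood at scaled counts of 1042, 899, 981, 1132 and 1109.6 in WT 1 to 5 and 1185, 1153, 1123, 1204 and 1147 in Cmg2-KO 1 to 5. The Cmg2-KO libraries were within a narrow band that overlapped the WT range only at WT 4. The log2 fold change was 0.17 ± 0.07 (SE). Slc25a46 encodes a protein of the outer mitochondrial membrane with a role in mitochondrial shape rather than a known substrate, and had scaled counts of 798 ± 36.8 across WT libraries and 879.6 ± 45.04 across Cmg2-KO libraries (SD, n = 5). Slc25a35, a carrier with no substrate given here, was also higher, with a log2 fold change of 0.42 ± 0.18 (SE). Slc25a10, the dicarboxylate carrier that exchanges malate and succinate for phosphate, was lower, with scaled counts of 439 ± 71.8 across WT libraries and 338 ± 65.7 across Cmg2-KO libraries.

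The sugar and carboxylate classes had 1 listed gene each. Slc45a4 (chromosome 7, 114821971 to 114848414, minus strand), placed by its family among proton-coupled sugar carriers, had scaled counts of 552, 537, 512, 564 and 474 in WT 1 to 5 and 616, 612, 579.6, 673 and 638 in Cmg2-KO 1 to 5. All Cmg2-KO libraries exceeded all WT libraries, with similar spread in both genotypes. The means were 528 ± 35.7 across WT libraries and 624 ± 34.6 across Cmg2-KO libraries (SD, n = 5), a ratio of 1.18 and a log2 fold change of 0.24 ± 0.07 (SE), and its adjusted p in the authors' deposited table was 0.155. Slc16a14, an orphan of the monocarboxylate family, ranged from 214 to 409 scaled counts among WT libraries and from 159.9 to 239 in Cmg2-KO. Its log2 fold change was -0.37 ± 0.18 (SE), and -0.21 without WT 2, its highest library.

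Levels of different genes were compared per kb of the gene length in the table. Slc6a6 was the most abundant carrier listed, with scaled counts of 772 ± 76.5 per kb in WT libraries and 666 ± 55.7 in Cmg2-KO libraries (SD, n = 5). By the mean over all 10 libraries the next were Slc25a24 at 291 ± 26.9 per kb in WT libraries and 328 ± 9.14 in Cmg2-KO libraries, Slc23a2 at 338 ± 33.7 per kb in WT libraries and 267 ± 33.2 in Cmg2-KO libraries and Slc10a3 at 268 ± 18.7 per kb in WT libraries and 304 ± 16.1 in Cmg2-KO libraries. Slc43a2, at 271 ± 11.3 per kb in WT libraries and 237 ± 24.2 in Cmg2-KO libraries, was above Slc10a3 in WT by less than the SD of Slc10a3 and below it in Cmg2-KO. In WT, Slc25a24 and Slc10a3 differed by less than the SD of Slc25a24, with Slc23a2 above both, while in Cmg2-KO Slc23a2 was the lowest of the 3. Slc6a6 was clear of them in both genotypes. Slco1a2, at 175 ± 53.5 per kb in WT libraries and 93.8 ± 22.7 in Cmg2-KO libraries, and Slc52a3, at 74.8 ± 8.93 per kb in WT libraries and 53.2 ± 3.54 in Cmg2-KO libraries, were in the middle of the range. Slc4a10 was the least abundant, at 0.566 ± 0.180 per kb in WT libraries and 1.26 ± 0.234 in Cmg2-KO libraries.

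**Figure D3:**
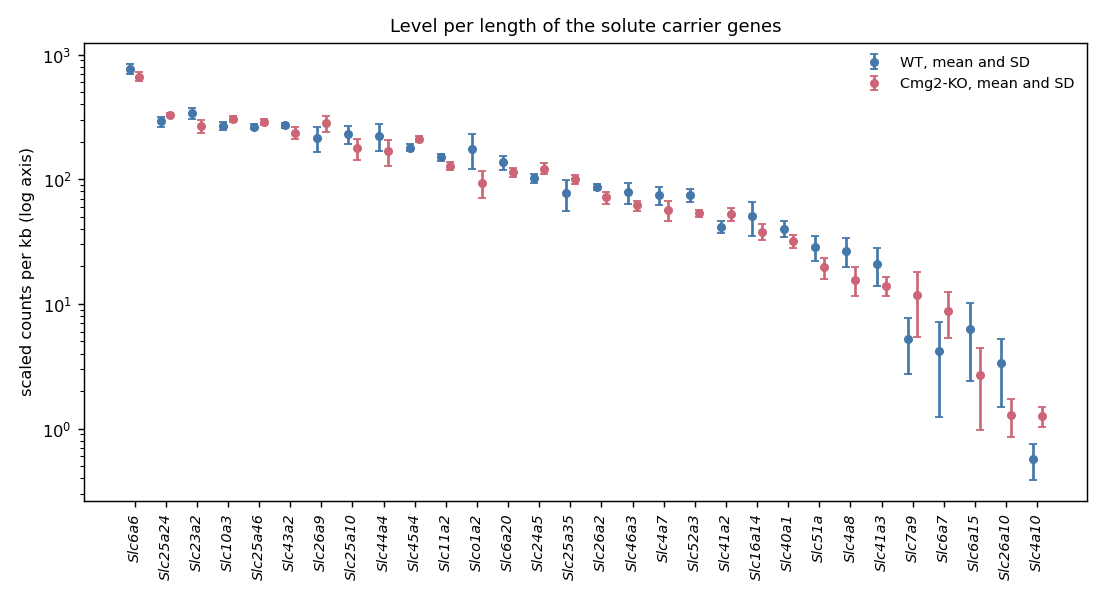
Mean scaled counts per kb of gene length with SD (n = 5 per genotype, WT blue, Cmg2-KO red) for 30 solute carrier genes, ordered by the mean over all libraries on a log axis. Slc6a6 is highest and Slc4a10 lowest.

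The spread among WT libraries was wide for sparse carriers and narrow for several abundant ones. In WT the coefficient of variation was 4.15% for Slc43a2, 4.61% for Slc25a46 and 6.08% for Slc11a2, against 61.7% for Slc6a15 and 70.2% for Slc6a7. Slco1a2, at 30.5% with a WT mean of 551 scaled counts, stood beside carriers with means between 439 and 528 that ran from 6.77% for Slc45a4 through 16.4% for Slc25a10 to 24.4% for Slc44a4.

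In the authors' coordinates, whose build is not given in the sources used here, 3 pairs of carriers lay within 1 Mb of each other. Slc11a2 and Slc4a8 on chromosome 7, with 334 kb between them, were both lower, and so were Slc41a3 and Slc6a6 on chromosome 4, 132 kb apart. Slc6a7 and Slc26a2 on chromosome 18, 189 kb apart, went in opposite directions.

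Other transport genes that build or use the same gradients were read from lists of pumps, channels and carriers without an Slc symbol. Of these, 20 were listed, 7 higher and 13 lower, where 51.8% of all genes tested were lower. In limma 0 of the 20 passed an adjusted p of 0.05, beside 0.229% of all genes tested. The ATP-driven pumps had 4 of 69 RefSeq symbols listed, 1 higher and 3 lower. Atp1b3, a beta subunit of the sodium-potassium pump, stood at scaled counts of 4395, 4885, 4818, 4667 and 4432 in WT 1 to 5 and 5061, 5553, 5669.8, 5011 and 5332 in Cmg2-KO 1 to 5, with all Cmg2-KO libraries above all WT libraries and a log2 fold change of 0.20 ± 0.05 (SE). Its relative Atp1b2, another beta subunit, had all Cmg2-KO libraries below all WT libraries by a narrow gap. The nearest were Cmg2-KO 2 at 113.3 scaled counts and WT 2 at 114.1, and the log2 fold change was -0.41 ± 0.14 (SE). Atp6v1b1, a proton pump subunit, had scaled counts of 18.5 ± 3.55 across WT libraries and 8.49 ± 3.45 across Cmg2-KO libraries (SD, n = 5).

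Sodium and chloride channels had 3 of 33 symbols listed. Scnn1a, the alpha subunit of the epithelial sodium channel, had scaled counts of 7303 ± 1526 across WT libraries and 5864 ± 969.8 across Cmg2-KO libraries (SD, n = 5). Cftr, the cystic fibrosis chloride channel, had 257 ± 34.9 across WT libraries and 319.8 ± 59.1 across Cmg2-KO libraries, and Ano5 had 10.3 ± 7.49 across WT libraries and 2.001 ± 1.69 across Cmg2-KO libraries. Potassium channels had 5 of 95 listed, 2 higher and 3 lower, among them Kcnj12, which was higher, and Kcna5, Kcnk6 and Kcnj4, which were lower. Calcium and TRP channels had 2 of 55, with Cacna1d higher and Cacna1g lower.

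ABC transporters, which use ATP to move lipids, drugs and other molecules across membranes, had 2 of 54 listed, Abcd2 and Abca5, both lower. Carriers without an Slc symbol had 4 of 56, with Sv2a and Flvcr2 higher and Mfsd14a and Mfsd4a lower. All Cmg2-KO libraries exceeded all WT libraries in Sv2a, by a narrow gap. In the authors' deposited table Mfsd14a alone of the 20 had an adjusted p below 0.05 (5.46% of all listed genes did), at 0.0479. Its scaled counts were 20.3, 29.04, 98.8, 86.96 and 22.1 in WT 1 to 5 and 17.4, 15.8, 14.6, 10.4 and 13.5 in Cmg2-KO 1 to 5. The genotypes did not overlap, and the WT libraries covered a wide range. Aquaporins (12 symbols) and a list of 15 accessory and regulatory proteins of Slc carriers had 0 listed genes.

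**Figure D4:**
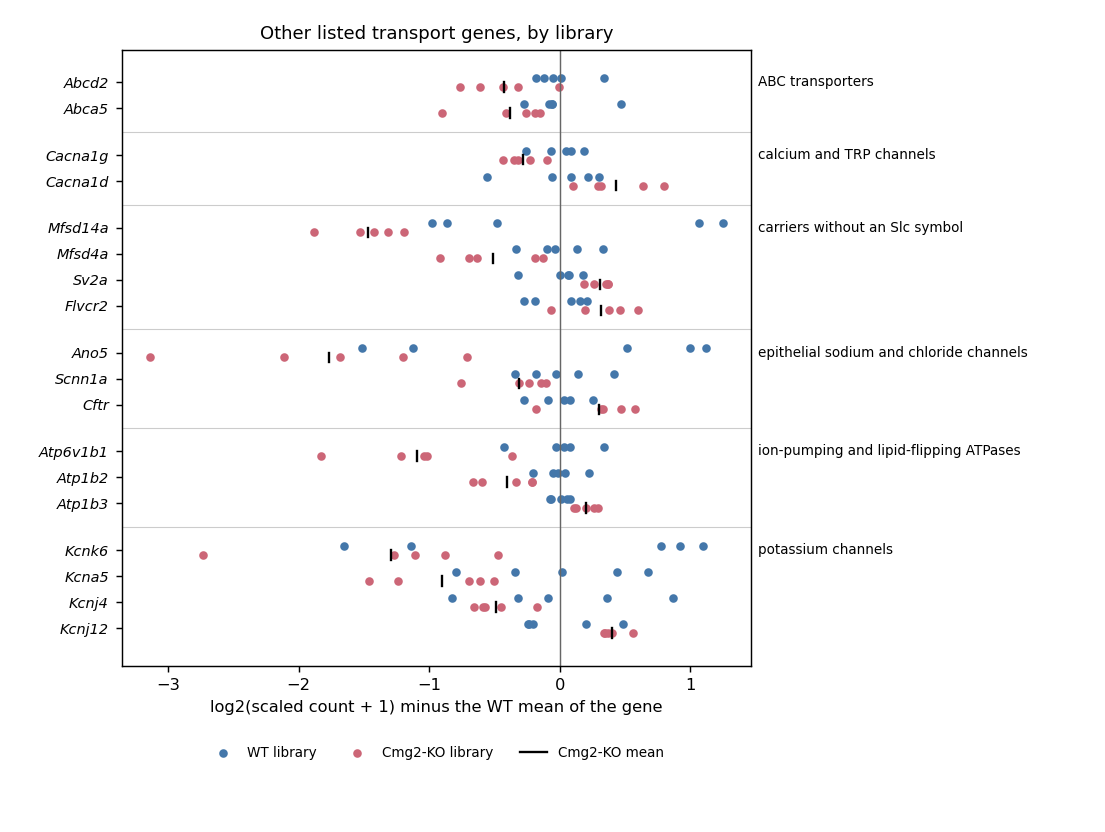
Other listed transport genes, 1 per row and grouped by list, with each library placed by log2(scaled count + 1) minus the gene's WT mean (WT blue, Cmg2-KO red, black tick at the Cmg2-KO mean). The Cmg2-KO mean is right of 0 for 6 of the 18 genes shown and left of 0 for 12, and Ano5, Kcnk6 and Mfsd14a have the widest scatter.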

How the data were processed

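RNA from flash-frozen lung was made into libraries with the NEBNext Ultra kit, per the labels' protocols. Nothing in that name says the kit marks strand, so a gene and an overlapping or antisense neighbour may share counts. The submitters' processing notes name HISAT2 (2.0.5) and featureCounts (1.5.0-p3). Which build, annotation and test the authors used is not given in the sources used here. Each of the 10 library columns is a signal, namely the authors' gene counts divided by 1 size factor per library. The deposited table also gives the authors' log2 fold change, fold (ratio), p-values and gene length (its other numeric column) per the file headers. Every value was a whole multiple of 1 read within 0.02 reads (100% of values). The read unit of WT 4, at 1.011 scaled counts, was taken as too near 1 for its reads to be counted as recovered. The count tests therefore used 9 libraries, and WT 1, with a unit of 1.016, was kept. The series text speaks of more libraries than the 5 per genotype analysed here.

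Limma 3.58.1 (trend and robust, R 4.3.3) was fitted to log2(scaled count + 1) over the 1308 genes above 0.5 in at least 5 libraries, which kept all 31 carriers. Benjamini-Hochberg adjustment used the 19894 genes the deposited p-values imply, with genes outside the table counted as not passing. The limma variance estimates drew on the listed genes alone, so these adjusted p-values are not those of a fit to all genes. Alternatives covered pseudocount, filter, scaling, test (edgeR 4.0.16 called 1 gene of the table, DESeq2 1.42.0 called 49), adjustment, replicate block and leaving out each library. The carriers and lists were chosen with earlier results of these data known. Single values of 1 carrier, 2 other transport genes and 1 cell type marker are not reported here, although the counts include them. Values in every library are given for 15 of the 16 carriers that had a deposited adjusted p under 0.05, did not overlap, were among the 8 largest changes with a mean of at least 10, or were among the 4 highest per kb, and Slc26a9 and Slc40a1 were added after their values were seen. Symbols of 29 carriers matched RefSeq (GRCr8) directly and 2 as synonyms.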

Additional observations from a re-analysis of the deposited data

Results flagged for a closer look

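For each carrier and genotype, the gap between the highest or lowest library and its nearest neighbour was set against the whole range of the 5 log2 values. The gap exceeded 0.71 of the range in 4 of 60 groups (30 carriers in each genotype), and chance flags about 1 in 20 groups, here 3. Cmg2-KO 2 had 168 scaled counts of Slco1a2, while its Cmg2-KO companions ranged from 316 to 337. WT 5 had 474 scaled counts of Slc26a9, while its WT companions ranged from 804 to 929. Cmg2-KO 4 had 801 scaled counts of Slc25a46, while its Cmg2-KO companions ranged from 886 to 910.3. WT 2 had 409 scaled counts of Slc16a14, while its WT companions ranged from 214 to 241.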

How the results depend on the processing

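Leaving out each library in turn, or changing the pseudocount, filter, scaling or test, left 20 carriers lower in every setting except the filter above 10, which kept 28 carriers with 19 lower. Of 648 recomputed log2 fold changes of single carriers, 0 changed sign and 8 passed an adjusted p of 0.05 where the reported fit did not. Of these, 7 came from adjusting over the listed genes alone, a setting that ignores how the genes were selected, and 1, Slco1a2, from DESeq2 on 9 libraries. With limma and that adjustment 7 of the 31 carriers passed, beside 257 of the 1308 genes tested. The number of listed genes passing limma was 3 in the reported fit and 5 with quantile normalization. On the 9 libraries with recovered reads edgeR called 1 and DESeq2 49, and limma without the remaining library, WT 4, called 1, so these counts differ from the reported one in both test and libraries. Without single libraries the limma count ran from 1 to 6, the median log2 fold change of the carriers from -0.31 to -0.23, and the carriers whose genotypes did not overlap from 6 to 11, since fewer libraries overlap less. The carriers with an unadjusted limma p under 0.05 ran from 16 to 25 without single libraries. With quantile normalization Slc25a46 had a log2 fold change of 0.05, Slc51a of -0.31 and Slc40a1 of -0.20. The cause of these shifts was not tested. With the replicate number as a block, 0 listed genes and 0 carriers passed. The numbers were not treated as pairs, because same-numbered libraries had correlations of their deviations between -0.016 and 0.087. WT 1, WT 2 and WT 4 correlated best with the Cmg2-KO library of the same number, and WT 3 and WT 5 with another number. Carriers at a few reads per library, such as Slc4a10 and Slc26a10, have a large counting error relative to their level. Its part in their spread was not tested.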

Other observations

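A gene model without an Slc symbol, LOC292543 on chromosome 1 (64618506 to 64632131), is described in the deposited table as similar to a cationic amino acid carrier of family 7. It was lower in Cmg2-KO, with scaled counts of 44.6 ± 8.72 across WT libraries and 24.9 ± 13.4 across Cmg2-KO libraries (SD, n = 5) and a log2 fold change of -0.97 ± 0.37 (SE). Of its Cmg2-KO libraries, 4 lay below every WT library. It was outside the symbol rule and was chosen after its values were seen.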
